A study of Mus musculus with 16 samples.

Results

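Vegfa, Vegfb, Vegfc, Fgf2, Angpt1 and Angpt2, which encode angiogenic growth factors, were compared between hearts of multiparous and virgin mice. Kdr, Flt1 and Tek, which encode receptors for these factors other than Fgf2, were compared with them. These 9 genes were taken by symbol from the 55487 genes of the deposited tables, and all 9 passed the filter on low counts. The multiparous group held 8 C57Bl/6J mice with a history of more than 3 pregnancies, and the virgin group held 8 C57Bl/6J mice that had never been pregnant. All mice were 24 months old and received no intervention, and RNA of the left ventricular mid section was sequenced from hearts flushed with cold saline. The comparison asks how transcripts of the aged heart differ with parity. Library names carry a code, which is P for 4 multiparous hearts, MP for the other 4 and AA for all virgin hearts. The labels do not say what the codes mean, and since no code occurs in both groups, code and parity cannot be told apart.

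Vascular endothelial growth factors (VEGFs) are secreted ligands that bind receptor tyrosine kinases on endothelial cells, and in the heart cardiomyocytes are a main source of VEGF-A and VEGF-B. Kdr (VEGF receptor 2) carries most of the growth signal, while Flt1 (VEGF receptor 1) binds VEGF-A tightly, signals weakly and also exists as a soluble form that traps the ligand. Angiopoietin 1, made by cells around the vessel, activates the endothelial receptor Tek (Tie2) and keeps vessels quiet, and angiopoietin 2, released by endothelial cells, mostly opposes it. Gene counts add up all isoforms, so soluble Flt1 was not separated from the full receptor.

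The promoters of Vegfa and of the 3 receptors are shown because the levels and ratios of these genes carry the comparisons that follow. They are the 250 bases before the start of transcription from RefSeq (GRCm38.p6), written 5′ to 3′ on the gene's strand, with every GC box (GGGCGG on either strand) in capitals.
Vegfa, chr17:46032378-46032627, minus strand: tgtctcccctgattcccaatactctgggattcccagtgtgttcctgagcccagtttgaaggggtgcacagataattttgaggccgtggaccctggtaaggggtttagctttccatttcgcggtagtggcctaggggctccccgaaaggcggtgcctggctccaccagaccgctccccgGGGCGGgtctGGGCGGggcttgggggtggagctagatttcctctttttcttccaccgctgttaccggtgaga
Kdr, chr5:75978456-75978705, minus strand: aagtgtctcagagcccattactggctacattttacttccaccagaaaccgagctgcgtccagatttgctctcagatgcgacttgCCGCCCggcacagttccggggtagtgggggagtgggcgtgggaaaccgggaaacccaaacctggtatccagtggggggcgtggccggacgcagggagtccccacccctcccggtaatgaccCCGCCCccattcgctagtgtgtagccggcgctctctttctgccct
Flt1, chr5:147726012-147726261, minus strand: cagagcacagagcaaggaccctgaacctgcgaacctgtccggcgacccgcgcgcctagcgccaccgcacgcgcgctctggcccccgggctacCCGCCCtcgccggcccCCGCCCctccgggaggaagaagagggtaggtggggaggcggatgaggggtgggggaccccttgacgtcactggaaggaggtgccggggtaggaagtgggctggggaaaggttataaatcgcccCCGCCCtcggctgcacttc
Tek, chr4:94739039-94739288, plus strand: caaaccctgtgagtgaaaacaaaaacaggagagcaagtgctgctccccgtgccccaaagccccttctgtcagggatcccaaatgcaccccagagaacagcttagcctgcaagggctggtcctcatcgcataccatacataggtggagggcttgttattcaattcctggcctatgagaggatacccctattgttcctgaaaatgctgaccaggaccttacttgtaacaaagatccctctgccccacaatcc
RefSeq promoters were given for 7 of the 9 genes, in 8 entries (Vegfa has 2, of which the upstream one is shown), and Angpt1 and Angpt2 had none. The same window held 4 GC boxes in Vegfb, 2 in Vegfc and 1 in Fgf2, so 6 of the 7 genes had at least 1 and Tek had none. Among all 32851 promoter windows of this length, 32.7% held a GC box. A match describes letters in the window and not a bound site.

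Library depth was 34560606 to 58890976 counts in genes for 15 libraries and 228325238 for virgin 8. Levels are given as CPM, a gene's count scaled to library size with edgeR's TMM factors. The lowest count of a member in any library was 139, for Angpt2, and Kdr had at least 11160 in every library. Markers fitted the labelled tissue, with all 9 cardiomyocyte markers detected and a summed level of 67300 to 85100 CPM in multiparous compared with 61900 to 90400 CPM in virgin hearts. The 14 endothelial markers were all detected and summed to 974 to 1180 CPM in multiparous compared with 981 to 1230 CPM in virgin hearts. Transcripts of other organs differed more. The 15 kidney markers summed to 0.669 to 8.04 CPM in multiparous compared with 3.17 to 57.2 CPM in virgin hearts, and the 7 liver markers to 1.1 to 261 CPM and 0.945 to 17.1 CPM in the same order. Among the kidney markers, Kap, Cltrn, Slc22a8, Slc7a12 and Slc3a1 were known from an earlier analysis of these data to differ. The contrast of the kidney sum was thus partly set in advance. All 10 kidney markers tested, these and others, had lower means in multiparous hearts. No marker of these 4 lists was at 0 in all libraries. In bulk tissue, fewer cells of a type and less RNA per cell cannot be told apart.

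Per exon length, the ligands Vegfb and Vegfa stood highest and Angpt2 lowest. Vegfb had a median of 98.2 CPM per kb of exon over the 16 libraries (range 79.1 to 110.0) and Vegfa 58.6 (45.6 to 66.2). Kdr followed at 38.4 CPM per kb (25.8 to 43.3). The ranges of these 3 genes did not overlap, nor did that of Kdr overlap that of Flt1. Flt1, with a median of 15.6, and Tek, with 15.1 CPM per kb, were not separable, since Flt1 was the higher of the pair in 8 of 16 libraries. Angpt1 had a median of 8.0, Fgf2 of 5.17, Vegfc of 2.04 and Angpt2 of 1.21 CPM per kb. Neighbouring ranges overlapped for Tek and Angpt1, for Angpt1 and Fgf2, and for Vegfc and Angpt2. Tek was nevertheless above Angpt1 in all 16 libraries, and in 15 of 16 Angpt1 was above Fgf2 and Vegfc above Angpt2.

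**Figure D1:**
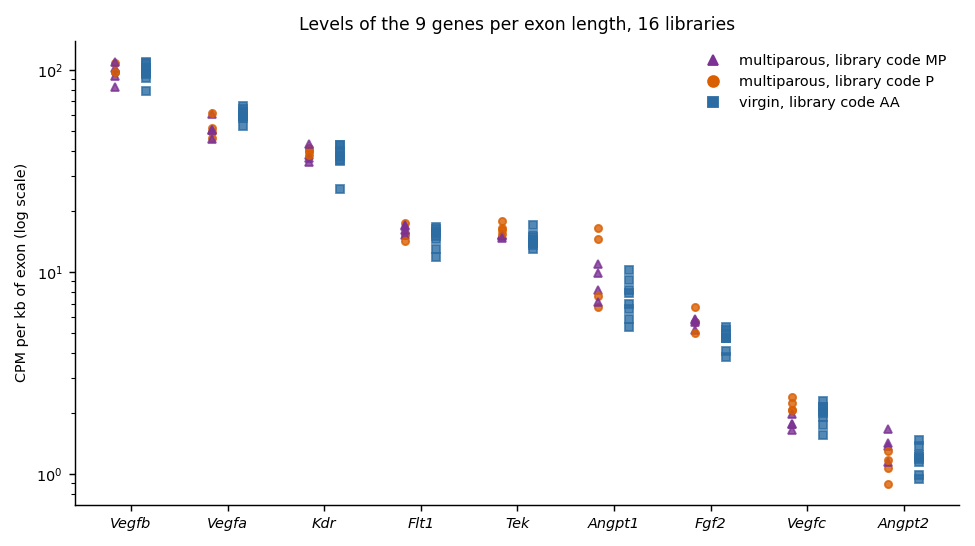
Level of each gene per kb of exon on a log scale, 1 point per library, with multiparous hearts left of virgin hearts and symbols for the library codes. Medians over the 16 libraries run from 98.2 CPM per kb for Vegfb to 1.21 for Angpt2, and the medians of the 2 groups give the same order of genes.

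In multiparous hearts, the means of Fgf2, Angpt1, Tek, Flt1, Angpt2, Kdr, Vegfc and Vegfb were higher than in virgin hearts and that of Vegfa was lower. None of the 9 differences passed the edgeR quasi-likelihood test at an adjusted p under 0.05 over all 17813 genes tested, where 0.0112% of genes passed. DESeq2, which called 130 genes in all, called 1 of the 9 (Fgf2). Limma voom, which called 3 genes in all, called 0 of the 9. At an unadjusted p under 0.05 stood 4 of the 9, namely Fgf2, Vegfa, Angpt1 and Tek, against 8.12% of all tested genes. The median log2 fold change of the 9 genes was 0.07. That of all tested genes was −0.003, and 48.6% of them were higher in multiparous hearts. In no member were the groups free of overlap, as they were in 0.0337% of tested genes.

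**Figure D2:**
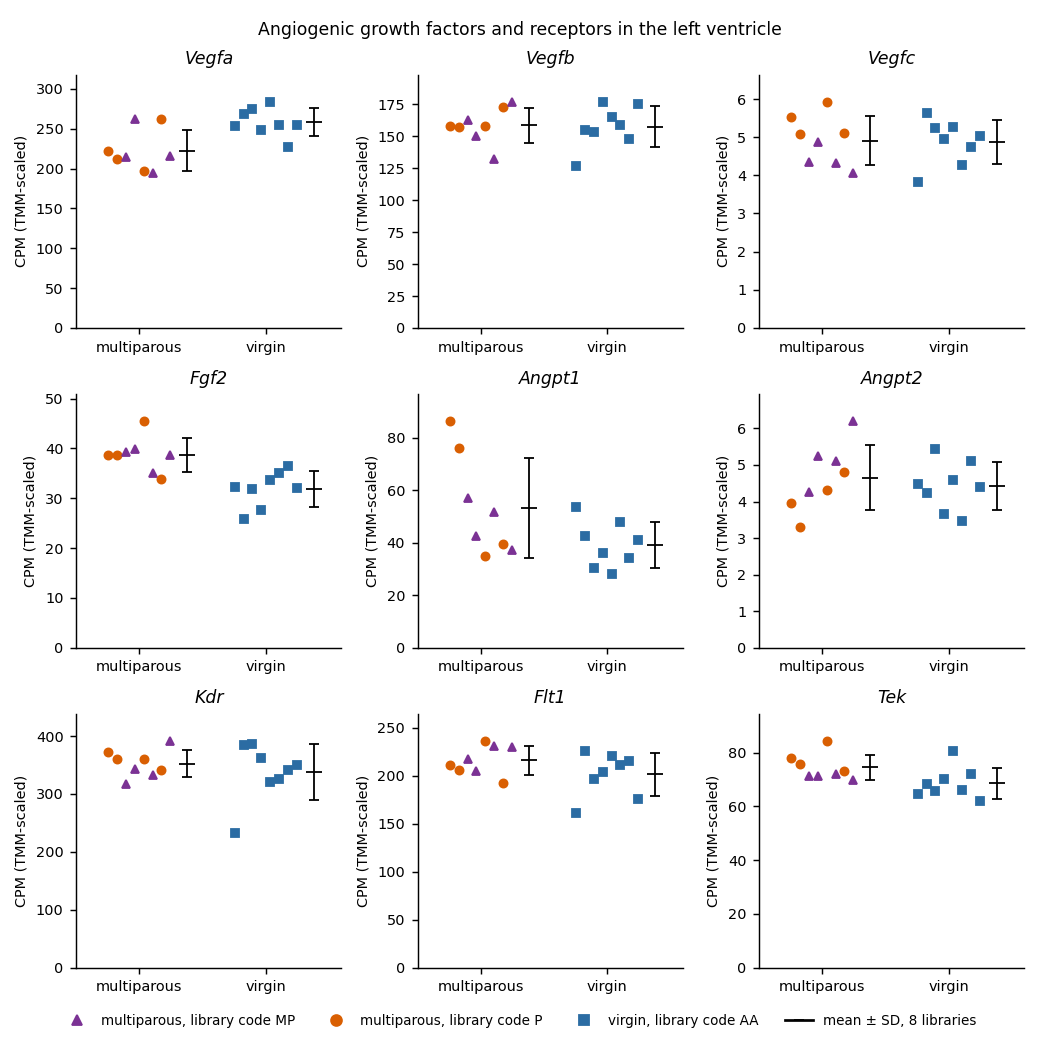
CPM of each gene in 8 multiparous and 8 virgin libraries, 1 point per library, with mean and SD at the right of each group and axes from 0. Fgf2 is above the virgin mean in all 8 multiparous hearts, Vegfa is below the lowest virgin heart in 6 of 8, and Kdr has 1 low virgin heart at 233 CPM.

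Vegfa encodes VEGF-A, the main inducer of vessel growth. The gene lies at chr17:46016993-46032369 on the minus strand (GRCm38). It ranged from 195 over a median of 216 to 262 CPM in multiparous hearts and from 227 over 255 to 284 CPM in virgin hearts. In 6 of 8 multiparous hearts the level was below the lowest virgin heart, while multiparous 4 and 7, at 262 CPM each, lay above the virgin mean. Means were 223 ± 25.9 CPM in multiparous compared with 258 ± 17.6 CPM in virgin hearts (SD, n = 8 each). The log2 fold change was −0.21 (SE 0.064, 95% interval −0.35 to −0.08, edgeR adjusted p = 0.279), and by its p Vegfa ranked 228 of 17813 genes. It was −0.21 for the MP-coded and −0.21 for the P-coded hearts alone against the virgin hearts. With the kidney marker sum as a covariate, which was itself lower in multiparous hearts, it was −0.24 (edgeR adjusted p = 0.745). The ranges of the cardiomyocyte marker sums overlapped, and their medians were 72200 CPM in multiparous compared with 73700 CPM in virgin hearts. Of the 9 markers 8 had lower means in multiparous hearts, 1 of these, Myl3 (log2 fold change −0.15), at an unadjusted p under 0.05. The part of the cardiomyocyte markers in the Vegfa difference was not tested.

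Fgf2 encodes basic fibroblast growth factor, which acts on endothelial cells, fibroblasts and cardiomyocytes. It lies at chr3:37348346-37410108 on the plus strand. Its level ran from 33.9 over a median of 38.6 to 45.4 CPM in multiparous and from 25.8 over 32.1 to 36.5 CPM in virgin hearts. All 8 multiparous hearts were above the virgin mean and 6 were above the highest virgin heart. The means were 38.7 ± 3.46 CPM and 31.9 ± 3.58 CPM in the same order (SD, n = 8 each), a fold of 1.21. The log2 fold change was 0.28 (SE 0.069, 95% interval 0.14 to 0.43, edgeR adjusted p = 0.158), with rank 78 by p, and it was 0.25 with the kidney covariate (edgeR adjusted p = 0.757). DESeq2 on the same genes gave an adjusted p of 0.0243, and over the 28 alternatives the adjusted p ranged from 0.0243 to 0.757. Fibroblast markers summed to 1400 to 2130 CPM in multiparous compared with 1300 to 1790 CPM in virgin hearts, and all 8 of them were detected. The largest part of the sum was Gsn, which averaged 1010 CPM in multiparous compared with 781 CPM in virgin hearts. Of the 8 markers 6 had higher means in multiparous hearts, 4 of these at an unadjusted p under 0.05. Col1a1 (log2 fold change −0.14) and Col1a2 (−0.01) had lower means. The part of the fibroblast markers in the Fgf2 difference was not tested. Of the 6782 exonic bases of Fgf2, 640 lie opposite Nudt6, and without a stated strand setting reads there cannot be assigned with certainty. A further 255 exonic bases are shared with Gm43439 on the same strand, which was listed at no more than a mean of 0.00303 CPM in either group. The opposite-strand genes Fgf2os and Gm42923 lie within or across the span of Fgf2 with 0 exonic bases shared. Nudt6 measured 10.8 ± 0.686 CPM in multiparous compared with 11.5 ± 1.31 CPM in virgin hearts, which is the direction opposite to Fgf2.

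Vegfb encodes VEGF-B, a ligand of Flt1 that is abundant in heart muscle. It lies at chr19:6982473-6987651 on the minus strand. It ranged from 132 over a median of 158 to 177 CPM in multiparous and from 127 over 157 to 177 CPM in virgin hearts, so the groups covered nearly the same span. The log2 fold change was 0.01 (SE 0.065, 95% interval −0.13 to 0.15, edgeR adjusted p = 0.987). Vegfc encodes VEGF-C, the lymphatic growth factor that binds Flt4 (VEGF receptor 3). It lies at chr8:54077606-54187096 on the plus strand. Its level ran from 4.05 over 4.97 to 5.93 CPM in multiparous and from 3.82 over 4.99 to 5.64 CPM in virgin hearts. The log2 fold change was again 0.01, with an interval of −0.18 to 0.20. For Vegfc it was −0.14 for the MP-coded and 0.15 for the P-coded hearts alone against the virgin hearts. With the kidney covariate it was −0.29 (edgeR adjusted p = 0.734). Lymphatic markers, 7 genes all detected, summed to 275 to 340 CPM in multiparous compared with 276 to 343 CPM in virgin hearts, but most of the sum was Prox1, which averaged 210 CPM in multiparous compared with 209 CPM in virgin hearts. Of the 7 markers 5 had lower means in multiparous hearts, and 2 of these, Reln (log2 fold change −0.40, edgeR adjusted p = 0.572) and Mmrn1 (−0.45, edgeR adjusted p = 0.58), had an unadjusted p under 0.05. Their part in the Vegfc values was not tested.

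Angpt1 (chr15:42424723-42676977, minus strand) was the member that varied most between hearts, with a coefficient of variation of 35.7% in multiparous and 22.2% in virgin hearts. Its level ran from 34.8 over a median of 47.0 to 86.1 CPM in multiparous and from 28.0 over 38.5 to 53.5 CPM in virgin hearts. The upper end was set by multiparous 1 at 86.1 and multiparous 2 at 75.9 CPM, both P-coded, while the other P-coded hearts, at 34.8 and 39.6 CPM, were among the 4 lowest of the multiparous group. The log2 fold change was 0.44 (SE 0.184, 95% interval 0.05 to 0.83, edgeR adjusted p = 0.542). Without multiparous replicate 1 it was 0.30, and the unadjusted p was then above 0.05. The 10 mural cell markers, all detected, summed to 1770 to 2050 CPM in multiparous compared with 1390 to 1990 CPM in virgin hearts. The lowest virgin sum was that of virgin 1, with the next at 1750 CPM. Most of the sum was Rgs5 and Abcc9. Rgs5 averaged 755 CPM in multiparous compared with 736 CPM in virgin hearts, and Abcc9 744 CPM and 668 CPM in the same order. Of the 10 markers, 6 averaged more and 4 less in multiparous hearts. Abcc9 (log2 fold change 0.15) and Tagln (−0.36) had an unadjusted p under 0.05. The part of the mural markers in the Angpt1 difference was not tested. For 737 of its 5205 exonic bases, Angpt1 overlaps the antisense gene Gm17473, which averaged 1.29 CPM in multiparous compared with 1.14 CPM in virgin hearts.

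Angpt2 was the least abundant member per length. It lies at chr8:18690263-18741562 on the minus strand. It ranged from 3.31 over a median of 4.56 to 6.19 CPM in multiparous and from 3.48 over 4.44 to 5.45 CPM in virgin hearts. This gave a log2 fold change of 0.07 (SE 0.117, 95% interval −0.18 to 0.31, edgeR adjusted p = 0.931). It was 0.001 without multiparous 8 and 0.126 without multiparous 2, and 0.23 for MP-coded and −0.11 for P-coded hearts against the virgin hearts. The gene lies within the span of Mcph1 on the opposite strand, with 0 exonic bases shared. The other 6 genes overlapped no annotated gene.

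Tek (chr4:94739289-94874976, plus strand) ranged from 69.9 over a median of 72.6 to 84.2 CPM in multiparous hearts and from 61.8 over 67.0 to 80.4 CPM in virgin hearts. All 8 multiparous hearts exceeded the virgin mean, and 5 virgin hearts were below the lowest multiparous heart. Means were 74.5 ± 4.78 CPM and 68.6 ± 5.75 CPM in the same order (SD, n = 8 each), with a log2 fold change of 0.12 (SE 0.051, 95% interval 0.01 to 0.23, edgeR adjusted p = 0.555). It was 0.05 for the MP-coded and 0.18 for the P-coded hearts alone against the virgin hearts, with an unadjusted p under 0.05 for P-coded hearts only, and −0.06 with the kidney covariate. The 6 endocardial markers, all detected, summed to 95.1 to 142 CPM in multiparous compared with 69.3 to 136 CPM in virgin hearts. Among them, Smoc1 and Plvap were known from an earlier analysis of these data to differ. The part of the endocardial markers in the Tek difference was not tested.

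Kdr (chr5:75932827-75978458, minus strand) ranged from 317 over a median of 351 to 391 CPM in multiparous and from 233 over 345 to 387 CPM in virgin hearts. The wide virgin span came from virgin 1, since the other 7 virgin hearts had at least 321 CPM. The log2 fold change was 0.06 (SE 0.079, 95% interval −0.11 to 0.23, edgeR adjusted p = 0.898), and −0.002 without virgin replicate 1. Flt1 (chr5:147561604-147726011, minus strand) ranged from 193 over 215 to 236 CPM in multiparous and from 161 over 208 to 226 CPM in virgin hearts, where virgin 1 again was the lowest. This gave a log2 fold change of 0.10 (SE 0.065, 95% interval −0.03 to 0.24, edgeR adjusted p = 0.749), 0.06 without virgin replicate 1 and 0.02 with the kidney covariate.

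**Figure D3:**
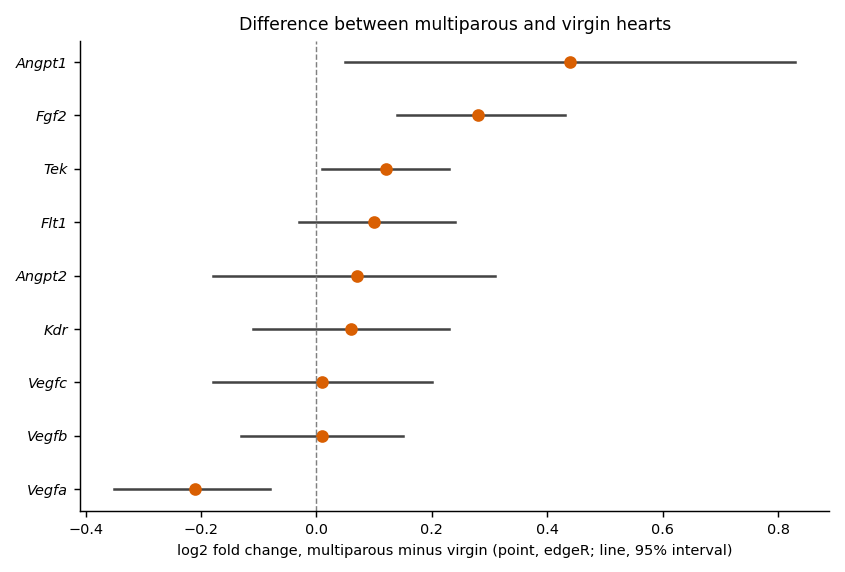
Log2 fold change of each gene, multiparous minus virgin, from edgeR, with the 95% interval as a line and 0 dashed. The unadjusted intervals of Angpt1, Fgf2 and Tek lie above 0 and that of Vegfa below, and no gene passed after adjustment.

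**Figure D4:**
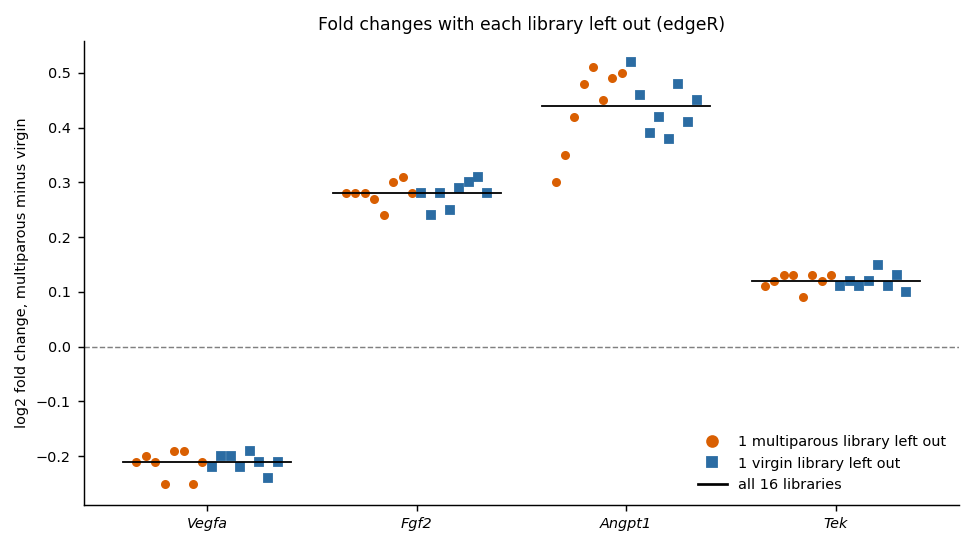
Log2 fold changes of the 4 genes with an unadjusted p under 0.05 when each of the 16 libraries was left out, with the value from all libraries as a line. Vegfa stayed between −0.25 and −0.19 and Fgf2 between 0.24 and 0.31, while Angpt1 spread from 0.30 to 0.52.

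Each library was left out in turn to see how far these 4 genes rested on any one. The unadjusted p of Fgf2 and of Vegfa was under 0.05 in all 16 such fits. For Angpt1 this held in 12 and for Tek in 10 of 16 fits. The adjusted edgeR p of Fgf2 ranged from 0.0703 to 0.308 and that of Vegfa from 0.147 to 0.49 over these fits.

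Ratios within a library do not depend on how libraries are scaled, and 8 ratios of CPM, with no correction for length, were compared. Vegfa per Flt1 had a median of 1.01 in multiparous hearts (0.834 to 1.36) and 1.25 in virgin hearts (1.05 to 1.58), with 6 of 8 multiparous hearts below the lowest virgin heart. The difference in mean log2 ratio was −0.33 (exact two-sided permutation p = 0.0124 over all 12870 assignments, adjusted p = 0.0591 over the 8 ratios). For Vegfa per Kdr the medians were 0.592 (0.548 to 0.767) in multiparous and 0.72 (0.665 to 1.09) in virgin hearts, and all 8 multiparous hearts were below the virgin mean of the log2 ratio. This difference was −0.29 (exact permutation p = 0.0148, adjusted p = 0.0591). The highest virgin ratio was that of virgin 1, the heart with the least Kdr, and the next was 0.885 in virgin 5. Virgin 1 thus raised the virgin mean. Without virgin 1 the difference was −0.219 (adjusted exact permutation p = 0.12), the smallest with any 1 library left out. Both ratios share Vegfa as numerator, and none of the 8 ratios passed, while 3 had an exact permutation p under 0.05 before adjustment. When single libraries were left out, the adjusted exact permutation p of both ranged from 0.0255 to 0.129, the highest without multiparous 5. It was under 0.05 in 3 of these 16 runs, without multiparous 4 (0.0274), multiparous 7 (0.0255) or virgin 7 (0.0454), which are the multiparous hearts with the most Vegfa and the virgin heart with the least. For each code alone against the virgin hearts it ranged from 0.151 to 0.269.

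**Figure D5:**
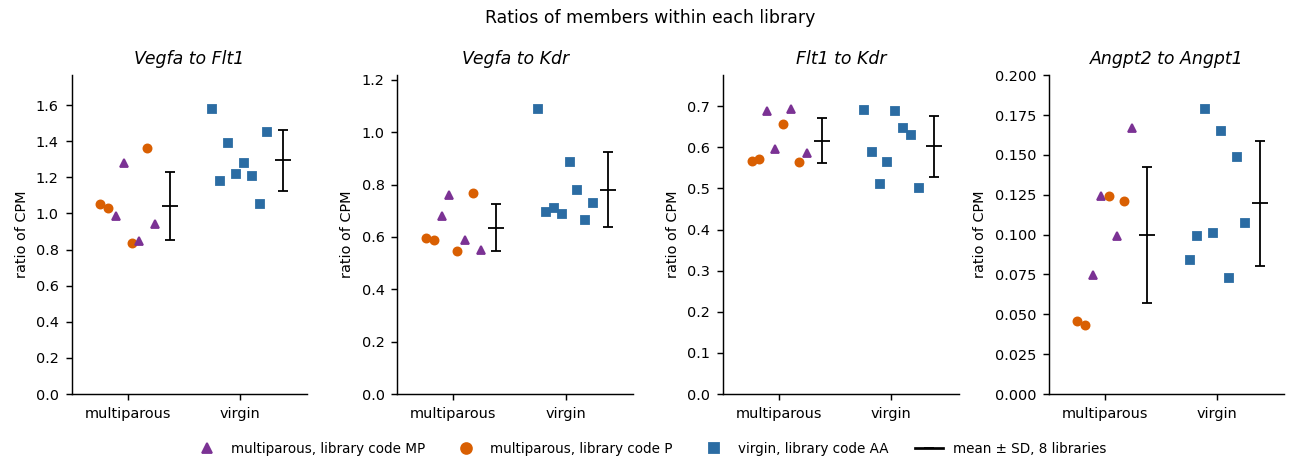
Ratio of CPM within each library for 4 pairs of genes, 1 point per library, with mean and SD at the right of each group and axes from 0. Vegfa per Flt1 and Vegfa per Kdr sit lower in most multiparous hearts, and Flt1 per Kdr and Angpt2 per Angpt1 overlap over most of their range.

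Angpt2 per Angpt1, a measure of the balance of the opposing Tek ligands, had a median of 0.11 (0.0436 to 0.167) in multiparous and 0.104 (0.073 to 0.179) in virgin hearts. The lowest multiparous values were those of multiparous 1 and 2, the hearts with the most Angpt1. The difference in mean log2 ratio was −0.33 (exact permutation p = 0.29, adjusted p = 0.464). It was −0.193 without multiparous 1 and −0.182 without multiparous 2, and −0.041 for MP-coded and −0.625 for P-coded hearts against the virgin hearts. Flt1 per Kdr had medians of 0.592 and 0.61 in the same order, with a difference of 0.04 (exact permutation p = 0.645). Set against the summed endothelial markers, Tek had a median ratio of 0.067 in multiparous and 0.0642 in virgin hearts, a difference of 0.10 on the log2 scale (exact permutation p = 0.0452, adjusted p = 0.121). The same measure differed by 0.06 for Kdr, 0.09 for Flt1 and 0.05 for Angpt2, with exact permutation p from 0.288 to 0.722.

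Between the codes of the multiparous hearts, Vegfc, Angpt2 and Tek had an unadjusted p under 0.05, where 11.0% of 18123 genes did. Vegfc averaged 4.4 ± 0.34 CPM in MP-coded and 5.41 ± 0.404 CPM in P-coded hearts (SD, n = 4 each), and the highest MP-coded heart, with 4.87 CPM, was below the lowest P-coded heart, with 5.08 CPM. Its log2 fold change was −0.29 (SE 0.101, edgeR adjusted p = 0.303). Angpt2 averaged 5.2 ± 0.794 CPM in MP-coded and 4.1 ± 0.626 CPM in P-coded hearts (log2 fold change 0.34, edgeR adjusted p = 0.415). Tek averaged 71.1 ± 0.831 CPM and 77.9 ± 4.7 CPM in the same order (log2 fold change −0.13, edgeR adjusted p = 0.411). In Tek too the ranges were apart, with a highest MP-coded value of 71.9 and a lowest P-coded value of 73.2 CPM, and 5.88% of all genes were without overlap in this way. The kidney marker sums were split by code as well, at 3.04 to 8.04 CPM in MP-coded and 0.669 to 1.22 CPM in P-coded hearts. The cardiomyocyte sums, at 67300 to 72100 CPM in MP-coded and 72300 to 85100 CPM in P-coded hearts, and the lymphatic sums, at 275 to 301 CPM and 303 to 340 CPM in the same order, were without overlap too. Only the marker sums without overlap are given here. The endothelial, endocardial, mural, fibroblast, macrophage, liver and atrial sums overlapped between the codes, and most of the lymphatic sum was Prox1. The part of any of these markers in the differences was not tested. No member passed with edgeR or DESeq2, against 0.121% of all genes with edgeR and 295 genes in all with DESeq2.

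Among the 36 pairs of members, no correlation passed adjustment. Deviations of log2 CPM from the group mean were compared over the 16 libraries, r was positive in 19 pairs, and 4 pairs had an unadjusted permutation p under 0.05. Angpt1 and Angpt2 varied in opposite directions, with r = −0.64 (permutation p = 0.0135, adjusted p = 0.311) and rho = −0.61 (permutation p = 0.0187, adjusted p = 0.337). Without the 2 libraries farthest from the median of Angpt1, r was −0.43, and it was −0.72 within multiparous and −0.5 within virgin hearts. With deviations from the mean of each library code, r was −0.63 (permutation p = 0.013, adjusted p = 0.309). Vegfc and Tek gave r = 0.57 (permutation p = 0.0259, adjusted p = 0.311) and rho = 0.61 (permutation p = 0.0164, adjusted p = 0.337), with r = 0.5 without the 2 farthest libraries, 0.90 within multiparous and 0.32 within virgin hearts. Both genes differ between the codes, as given above, and with deviations taken from the mean of each code, an alternative added after the data were seen, r was 0.41 (permutation p = 0.199, adjusted p = 0.62) and 0.73 within multiparous hearts. Vegfc and Kdr gave r = 0.59 (permutation p = 0.0179, adjusted p = 0.311) and rho = 0.43 (permutation p = 0.108, adjusted p = 0.855), with 0.70 without the 2 farthest libraries, 0.16 within multiparous and 0.85 within virgin hearts. From the code means it was 0.66 (permutation p = 0.0276, adjusted p = 0.331), and 0.09 without the 2 farthest libraries. Vegfb and Kdr gave r = 0.59 (permutation p = 0.0383, adjusted p = 0.344) and rho = 0.27 (permutation p = 0.326, adjusted p = 0.855). That last relation rested on the 2 libraries farthest from the median of Vegfb, since r was 0.03 without them, and it was 0.41 within multiparous and 0.69 within virgin hearts. From the code means r was 0.58 (adjusted permutation p = 0.426). Vegfa and Flt1, the pair of the ratio above, gave r = −0.31 (permutation p = 0.195, adjusted p = 0.741) and rho = −0.30 (permutation p = 0.252, adjusted p = 0.855), with r = −0.04 without the 2 farthest libraries. Within groups r was −0.84 in multiparous and 0.12 in virgin hearts, a split picked out after the values were seen and not tested.

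The genes whose deviations were most like those of each member were taken from 13826 genes with a mean of at least 1 CPM, over 16 libraries, as a description with no test. For Vegfa these were Pdap1 (r = 0.86), Mrgbp (0.85) and Spns1 (0.83), and for Vegfb Gnas (0.89), Tmem259 (0.87) and Vstm4 (0.85). Vegfc was most like Fgfrl1, a decoy-like FGF receptor (0.89), Trim16 (0.89) and the water channel Aqp1 (0.85). Fgf2 was most like Gm7117 (0.83), Pus10 (0.81) and Zfp944 (0.78), Angpt1 like Smim3 (0.91), Tmx1 (0.88) and Slc12a5 (0.86), and Angpt2 like Igfbp6 (0.82), L3mbtl2 (0.81) and Myrf (0.80). Among the receptors, Kdr was most like Kctd12b (0.90), the ephrin Efna1 (0.90) and BC029722 (0.88). Flt1 was most like Marf1, Fam126b and Cdc42bpa (0.85 each), and Tek like Ndfip2 (0.87), Spin1 (0.82) and Enpp3 (0.78).

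Around the 9 genes, 108 other genes of the same pathways were read, of which 103 were tested and Angpt4, Fgfr4, Kcne3, Car9 and Tnmd were not. None passed (lowest edgeR adjusted p = 0.154), and limma voom called 0. DESeq2, which called 130 genes in all, called 1 of them, Fgf7. At an unadjusted p under 0.05 stood 14 of 103, or 13.6%, with 11 higher and 3 lower in multiparous hearts, beside the 8.12% of all tested genes given above. Their median log2 fold change was 0.02.

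Of 10 other FGF ligands and receptors tested, 9 had higher means in multiparous hearts, beside 48.6% of all tested genes. An unadjusted p under 0.05 was found for 4 of them, beside 8.12% of all tested genes. None passed after adjustment in edgeR, and the list was chosen with earlier results of these data known. The median log2 fold change of the list was 0.15. Fgf7, keratinocyte growth factor, averaged 2.13 ± 0.608 CPM in multiparous compared with 1.21 ± 0.33 CPM in virgin hearts, with a log2 fold change of 0.81 and an SE of 0.196 (edgeR adjusted p = 0.154). Fgf16, a cardiomyocyte FGF, averaged 13.9 ± 1.73 CPM and 11.5 ± 2.0 CPM in the same order (edgeR adjusted p = 0.466). Fgfr1, the main FGF receptor of heart muscle, averaged 42.1 CPM in multiparous compared with 37.4 CPM in virgin hearts, and Fgf1, acidic FGF, 228 CPM and 208 CPM in the same order. Fgfr3 was the 1 gene of the list with a lower mean, at 8.46 CPM in multiparous compared with 9.99 CPM in virgin hearts (edgeR adjusted p = 0.631).

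The remaining VEGF ligands and receptors had 2 higher and 3 lower means of 5, and none had an unadjusted p under 0.05. Pgf, placental growth factor, a ligand of Flt1, averaged 2.58 ± 0.621 CPM in multiparous compared with 2.02 ± 0.557 CPM in virgin hearts (edgeR adjusted p = 0.646). Flt4 averaged 33.4 CPM in multiparous compared with 36.2 CPM in virgin hearts, and the co-receptor Nrp1 203 CPM and 197 CPM in the same order. Of the angiopoietin and Tie genes 3 were higher and 1 lower, with Svep1, an extracellular matrix protein, at 41.1 CPM in multiparous compared with 39.3 CPM in virgin hearts and Angptl1, an angiopoietin-like secreted protein, at 3.18 CPM and 3.48 CPM in the same order. Tie1, the partner of Tek, averaged 88.9 CPM in multiparous compared with 87.7 CPM in virgin hearts, and Ptprb, the phosphatase that restrains Tek, 265 CPM and 263 CPM in the same order.

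Genes of hypoxia and the HIF system, which controls Vegfa, had 9 higher and 12 lower means of 21, with 0 at an unadjusted p under 0.05 in edgeR. The oxygen-labile subunits Hif1a (111 CPM in multiparous, 110 CPM in virgin hearts) and Epas1 (556 CPM in multiparous, 549 CPM in virgin hearts) had nearly equal means. Vhl, which targets them for breakdown, averaged 9.51 CPM in multiparous compared with 8.81 CPM in virgin hearts, and the hydroxylase Egln3 117 CPM and 136 CPM in the same order. Genes that respond to VEGF or mark sprouting tip cells had 10 higher and 9 lower means of 19. Hey1, a Notch target, averaged 12.9 ± 2.69 CPM in multiparous compared with 10.2 ± 1.54 CPM in virgin hearts (edgeR adjusted p = 0.412), while the calcineurin regulator Rcan1 averaged 74.9 ± 11.1 CPM and 97.2 ± 19.0 CPM in the same order (edgeR adjusted p = 0.266). Dll4, the Notch ligand of tip cells, averaged 26.2 CPM in multiparous compared with 24.7 CPM in virgin hearts, and the tip cell marker Esm1 1.26 CPM and 1.14 CPM in the same order.

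Inhibitors of angiogenesis had 8 higher and 9 lower means of 17, with 2 of each at an unadjusted p under 0.05, beside 8.12% of all tested genes. Thrombospondin 1 (Thbs1) averaged 22.2 ± 4.81 CPM in multiparous compared with 30.3 ± 8.46 CPM in virgin hearts (edgeR adjusted p = 0.393). Thrombospondin 2 (Thbs2) went the other way, at 43.4 ± 8.94 CPM and 36.8 ± 3.48 CPM in the same order (edgeR adjusted p = 0.563). Adamts1, a protease that binds VEGF-A, averaged 37.0 CPM in multiparous compared with 44.1 CPM in virgin hearts, and the metalloproteinase inhibitor Timp2 118 CPM and 101 CPM in the same order. Other angiogenic factors, some of them also among the genes that respond to VEGF or mark tip cells, had 18 higher and 7 lower means of 25. Of all tested genes, 48.6% were higher in multiparous hearts. In this list 3 genes, all higher, had an unadjusted p under 0.05, beside 8.12% of all tested genes. Pdgfc, a platelet-derived growth factor, averaged 3.76 ± 0.468 CPM in multiparous compared with 2.93 ± 0.531 CPM in virgin hearts (edgeR adjusted p = 0.296). The lipid kinase Sphk1 averaged 0.816 CPM and 0.948 CPM in the same order. Of 7 regulators of the Vegfa transcript, 5 had higher means, with Sp1, a factor that binds GC boxes, at 91.0 CPM in multiparous compared with 85.0 CPM in virgin hearts (edgeR adjusted p = 0.582) and the nuclear receptor Esrra at 101 CPM in both groups.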

How the data were processed

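Each of the 16 libraries had a table of raw gene counts that the authors deposited. Per the submitters' processing notes, reads were trimmed with Trim Galore 0.6.10 and cutadapt 4.8, aligned with STAR 2.7.11b to GRCm38.p6 and counted with HTSeq 0.11.1. The sources used here give neither the annotation release nor the strand setting. Per the labels' protocols, libraries were stranded, depleted of ribosomal RNA and read as pairs. Entries naming no gene, 26.5% to 33.1% of each library, were left out of library sizes and tests. Coordinates and exon lengths are from GENCODE M21 (GRCm38), which had an entry for 99.53% of gene identifiers.

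Tests on counts used edgeR 4.0.16 under R 4.3.3 (TMM factors, filterByExpr, quasi-likelihood F-test on group alone, Benjamini-Hochberg over all genes, threshold 0.05), after a run on simulated data. The SE comes from the F statistic. MP-coded and P-coded libraries were tested the same way among the 8 multiparous libraries, which keeps 18123 genes. Ratios were compared by exact permutation, and correlations of log2 CPM (prior count 0.5) by 100000 permutations within groups. Alternatives were DESeq2 1.42.0, limma 3.58.1 voom, other factors and filters, a replicate block, marker covariates, each code alone and each library left out. Correlations from library code means were added after the data were seen.

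Named genes are the 9 members, in each list of pathway genes the gene with the smallest p in each direction, genes overlapping a member and the 3 genes most like each member. Genes named beside these (Fgf1, Fgf16, Fgfr1, Nrp1, Tie1, Ptprb, Hif1a, Epas1, Dll4, Esm1, Thbs1, Prox1, Reln, Mmrn1, Rgs5, Abcc9, Tagln, Gsn, Col1a1 and Col1a2) were chosen after their values were seen. Myl3, Thbs2, Nppa and Alb were chosen in the same way. The members, lists and markers were chosen with earlier results of these data known, and the kidney and endocardial markers named above were known to differ. Separate animals are stated only through the number of mice, so a p-value here speaks of the spread among libraries, which may be technical. Among 56 within-group pairs of libraries, chi-square divided by its degrees of freedom was at least 9.79, so none agreed within sampling noise.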

Additional observations from a re-analysis of the deposited data

Results flagged for a closer look

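Each of 56 groups of 8 values was checked for a highest or lowest library whose gap to the nearest other, divided by the range, was above Dixon's 95% critical value. By its construction that value is passed by chance in about 1 in 20 groups, and 6 groups passed it. Kdr in virgin 1 was 233 CPM, where the next lowest virgin heart had 321 CPM. The same library had the lowest mural marker sum of the virgin hearts, 1390 CPM with the next at 1750 CPM. It also had their highest macrophage marker sum, 349 CPM with the next at 236 CPM, and liver marker sum, 17.1 CPM with the next at 6.47 CPM. Virgin 7 had an atrial marker sum of 105 CPM, with the next at 44.3 CPM. Nearly all of that sum was Nppa, at 103 CPM, while each other atrial marker was at most 2.01 CPM in any virgin heart. Virgin 8 held 228325238 gene counts, with the next virgin library at 50910220.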

How the results depend on the processing

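Over 28 alternatives, Vegfa kept a log2 fold change of −0.25 to −0.178, Fgf2 of 0.243 to 0.311, Angpt1 of 0.269 to 0.589 and Flt1 of 0.016 to 0.141. Members called numbered 0 except with DESeq2, which called 1 (Fgf2). Signs turned, with the cause not tested, with the kidney covariate for Vegfb (−0.088), Vegfc (−0.287), Kdr (−0.04) and Tek (−0.062), in MP-coded hearts for Vegfb (−0.012) and Vegfc (−0.143), and in P-coded hearts for Angpt2 (−0.112), for Flt1 per Kdr (−0.024) and for Angpt2 per endothelial markers (−0.152). With 1 library left out, Vegfb ranged from −0.029 to 0.045, Vegfc from −0.032 to 0.047, Angpt2 from 0.001 to 0.126, Kdr from −0.002 to 0.09, Flt1 per Kdr from −0.001 to 0.065, Kdr per endothelial markers from −0.029 to 0.10 and Angpt2 per endothelial markers from −0.011 to 0.106. MP minus P ranged from −0.09 to 0.077 for Vegfa, −0.119 to 0.02 for Vegfb and −0.099 to 0.051 for Fgf2. Without factors, the median of all genes moved to 0.03 and the correlation of Kdr and Tek to −0.01. Ratios past the threshold numbered 0 to 2 when 1 library was left out. No pair of members correlated past the threshold in the 4 alternatives run, of which deviations from library code means was added after the data were seen.

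Genes called, 2 in the comparison of all libraries, numbered 130 with DESeq2, 56 without a filter, 97 for P-coded and 0 for MP-coded hearts, 0 without factors, 0 with the kidney and 1 with the endothelial covariate, and 0 to 55 with 1 library left out, the highest without virgin replicate 7. Between MP-coded and P-coded hearts, 22 were called, 295 with DESeq2, 7 without factors and 3 to 197 with 1 library left out, the highest without multiparous replicate 5. Same-numbered libraries shared only a number: deviations correlated above 0.1 in 1 of 8 pairs, and 1 library correlated best with its own number. The adjusted p of both Vegfa ratios was 0.188 with the replicate block (sign flips of same-numbered differences). With the replicate block 33 genes and no member were called (Fgf2 adjusted p = 0.256).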
